A study of Homo sapiens with 6 samples.

Results

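Chromatin at 10 genes of vascular growth factor signalling was examined in endothelial cells made in culture from H1, an established line of human embryonic stem cells. The genes encode the VEGF receptors KDR, FLT1 and FLT4, the coreceptors NRP1 and NRP2, the angiopoietin receptors TEK and TIE1, and the ligands VEGFA, ANGPT1 and ANGPT2. They were chosen by name as the core ligands and receptors of both pathways, and are 10 of 19974 protein-coding genes on chromosomes 1 to 22 and X. Every enriched stretch of chromatin, or island, that the authors called within 10 kb of the span of a gene was collected, which gave 57 of 62927 islands over 4 lists. The cells were GATA2-positive endothelial cells made in the condition labelled Vc+ or in the condition labelled Vc-, and the series title names vitamin C. GATA2 is a transcription factor of blood and endothelium, and all cells compared share the H1 line and the GATA2-positive state given in their labels. Each condition had 1 library for H3K4me3, a mark of active and poised promoters, and 1 for H3K27me3, the mark of Polycomb repression, and the 2 input samples were not analysed here.

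With 1 library per mark and condition there was no replicate check and no test, and each difference below is one between 2 libraries. All 4 deposited files bear the other condition in their names than in their sample labels. The design text of the series speaks of GATA2/eGFP+ and GATA2/eGFP- cells, while every sample label says GATA2+. Conditions follow the sample labels, and every direction would be the opposite under the file names. On chromosomes 1 to 22 and X, H3K4me3 formed 21991 islands over 48.2 Mb in Vc+ and 22307 over 43.3 Mb in Vc-, and H3K27me3 formed 9639 over 51.7 Mb in Vc+ and 8990 over 40.6 Mb in Vc-. The lists give no reads, so that depth is unknown. As a check of the cell type, promoter H3K4me3 was called at 10 of 10 endothelial markers in Vc+ and 9 of 10 in Vc-. VWF had none in Vc-, where its nearest H3K4me3 island lay 2.88 kb from a gene end. Over all protein-coding genes, H3K4me3 was called at 71.9% of promoters in Vc+ and 71.5% in Vc-. H3K27me3 was called at 5 of the same 10 in Vc+ (CDH5, VWF, CLDN5, ESAM and ERG) and at 3 in Vc- (CLDN5, ESAM and ERG). Its shares over all genes were 16.4% in Vc+ and 15% in Vc-. Markers with no annotated start, among them CDH5, VWF, CLDN5 and ESAM, were read at both ends of the gene span. Such calls do not tell the 5′ from the 3′ end. At VWF in Vc- the nearest H3K27me3 island lay 1.08 kb from a gene end, just outside the window of 1 kb. Of 5 blood markers 1 was marked in each condition, SPI1, and the nearest H3K4me3 island to PTPRC was 478 kb away in Vc+ and 479 kb away in Vc-. H3K4me3 was also present in both conditions at 4 of 5 mural and mesenchymal markers, 1 of 3 cardiac muscle markers (NKX2-5) and 1 of 3 pluripotency markers (LIN28A). Promoter marks are not a measure of transcription, and the purity of the cells was not tested.

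VEGF ligands bind receptor tyrosine kinases on endothelial cells and drive their specification, growth and migration, with the neuropilins as coreceptors that also bind semaphorins. Angiopoietins act through TEK, with TIE1 as its partner receptor, and set the stability of vessels. ANGPT1 is made mainly by mural and mesenchymal cells and activates TEK, and ANGPT2 is made by endothelium and acts for or against TEK depending on context. At promoters rich in CpG dinucleotides H3K4me3 is laid down widely in many cell types, and wide H3K4me3 islands are known for genes of cell identity.

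Promoter sequences differed in CpG content among the receptors, and 4 are shown for that contrast. They are RefSeq windows of assembly GRCh38 patch 14, from 250 bases before to 50 bases after the start of transcription, 5′ to 3′ on the strand of the gene, with CpG dinucleotides in capitals. KDR lies at chr4:55125546-55125845 on the minus strand and FLT1 at chr13:28495079-28495378 on the minus strand, and both hold more CpG than the median window. TEK at chr9:27108975-27109274 and TIE1 at chr1:43300732-43301031, both on the plus strand, hold fewer CpG than the median window.
KDR: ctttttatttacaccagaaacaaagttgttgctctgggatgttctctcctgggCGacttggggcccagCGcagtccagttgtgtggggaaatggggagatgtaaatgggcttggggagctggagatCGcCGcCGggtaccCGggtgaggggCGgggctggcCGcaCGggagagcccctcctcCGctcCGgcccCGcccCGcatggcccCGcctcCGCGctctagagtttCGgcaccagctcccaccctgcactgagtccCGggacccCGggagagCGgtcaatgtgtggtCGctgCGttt
FLT1: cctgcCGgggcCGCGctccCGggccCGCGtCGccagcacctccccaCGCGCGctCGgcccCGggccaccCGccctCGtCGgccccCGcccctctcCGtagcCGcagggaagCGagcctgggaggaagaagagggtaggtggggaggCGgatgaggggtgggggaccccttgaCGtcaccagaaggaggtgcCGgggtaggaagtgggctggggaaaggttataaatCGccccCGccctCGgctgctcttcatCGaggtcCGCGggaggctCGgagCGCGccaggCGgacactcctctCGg
TEK: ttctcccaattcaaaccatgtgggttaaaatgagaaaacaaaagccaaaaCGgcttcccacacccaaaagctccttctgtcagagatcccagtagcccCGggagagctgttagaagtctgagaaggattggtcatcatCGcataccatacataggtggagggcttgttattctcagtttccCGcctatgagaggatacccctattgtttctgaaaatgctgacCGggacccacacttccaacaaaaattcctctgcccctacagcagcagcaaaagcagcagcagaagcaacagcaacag
TIE1: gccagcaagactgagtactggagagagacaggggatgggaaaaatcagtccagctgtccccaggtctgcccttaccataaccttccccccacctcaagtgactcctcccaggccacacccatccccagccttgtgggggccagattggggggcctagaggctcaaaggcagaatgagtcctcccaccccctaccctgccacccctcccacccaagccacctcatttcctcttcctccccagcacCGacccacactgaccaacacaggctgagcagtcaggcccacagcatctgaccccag

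The KDR window held 22 CpG, and those of FLT1 and NRP2 held 33 each, against a median of 14 over 34959 windows of the table. The 25th and 75th percentiles were 4 and 28, so that KDR lay between them. TEK has 2 annotated starts, with 5 and 3 CpG in their windows, and TIE1 had 1 CpG, with fewer in 3.94% of windows. The TEK window with 5 CpG, which is the one shown, also lay between those percentiles. The G+C content of TIE1 was nevertheless 61.3%, above the median of 58.7%. Of the 10 genes 5 had an entry in the promoter table, and FLT4, NRP1, ANGPT1, ANGPT2 and VEGFA had none. For genes with an entry, the promoter was the stretch of 1 kb on either side of the start. For the others both ends of the gene span were read in the same way, which does not tell the 5′ from the 3′ end.

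H3K4me3 was called at the promoter of 9 of the 10 genes in Vc+ and of the same 9 in Vc-, where 71.9% of all protein-coding genes were called in Vc+, 71.5% in Vc- and 70.7% in both. All 7 receptors and coreceptors and the ligands VEGFA and ANGPT1 were called, and ANGPT2 was not. H3K27me3 was called at the promoter of FLT4 alone, in both conditions, where 16.4% of all genes were called in Vc+ and 15% in Vc-. With the span and 10 kb on either side in place of the promoter, the counts were again 9 and 1 in each condition, beside 80.3% of all genes in Vc+ and 80.2% in Vc- for H3K4me3, and 26.5% in Vc+ and 23.8% in Vc- for H3K27me3. No gene changed its call between conditions for either mark. Over all genes, H3K27me3 at the promoter was called in Vc+ alone at 2.64% and in Vc- alone at 1.25%, and H3K4me3 at 1.18% in Vc+ alone and 0.786% in Vc- alone. H3K4me3 in both conditions without H3K27me3 in either was found at 8 of the 10 promoters, as at 55.4% of all genes.

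**Figure D1:**
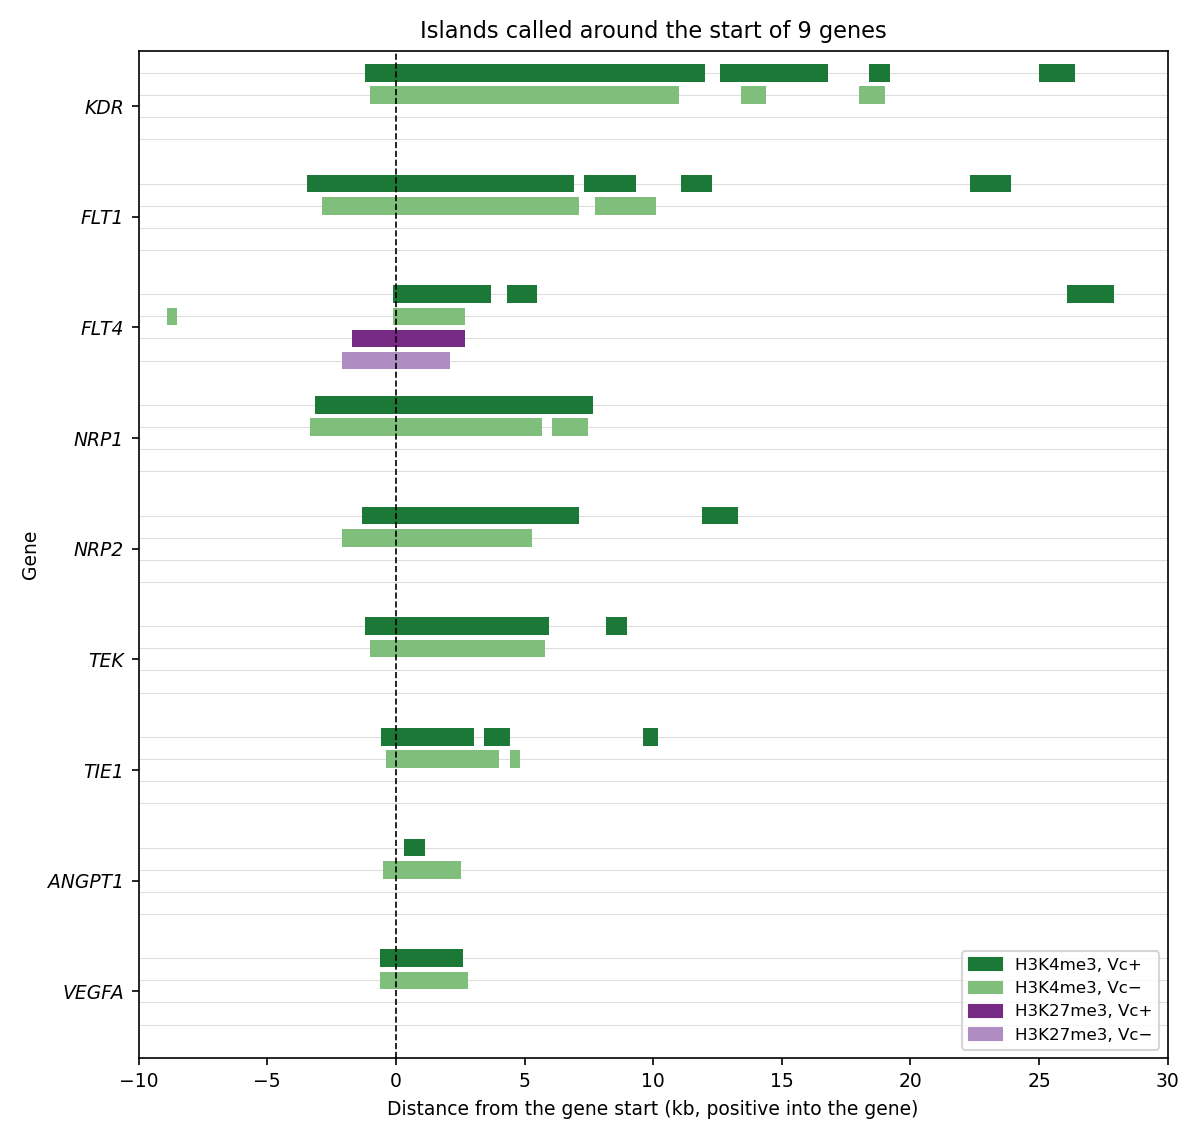
Islands from 10 kb before to 30 kb after the start of 9 genes, with distance in kb on the horizontal axis and 4 rows per gene, 1 per library (top to bottom H3K4me3 in Vc+ and Vc-, then H3K27me3 in Vc+ and Vc-). For FLT4, NRP1, ANGPT1 and VEGFA, which had no entry in the promoter table, 0 is the span end with H3K4me3, and ANGPT2, with no island, is not drawn. H3K27me3 bars appear at FLT4 alone, and the H3K4me3 bars at KDR, FLT1, NRP1, NRP2 and TEK reach more than 5 kb into the gene.

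Of the 7 receptors and coreceptors, 5 had wide H3K4me3 islands at the promoter, and FLT4 and TIE1 did not. At KDR, the main signalling receptor for VEGF on endothelium (NCBI gene 3791, chromosome 4, 55078481 to 55125595), the promoter island was 13.2 kb wide in Vc+ and 12 kb in Vc-. Promoter islands were narrower than this at 99.9% of called genes in each condition. The median width over called genes was 2.4 kb in Vc+ and 2.2 kb in Vc-, and the 95th percentile 5.4 kb in Vc+ and 4.8 kb in Vc-. FLT1, a high-affinity VEGF receptor that also gives a soluble decoy form (gene 2321, chromosome 13, 28300346 to 28495128), carried islands of 10.4 kb in Vc+ and 10 kb in Vc-. NRP1 (gene 8829, chromosome 10, 33177493 to 33334667) carried 10.8 kb in Vc+ and 9 kb in Vc-. NRP2, the coreceptor linked with lymphatic and venous endothelium (gene 8828, chromosome 2, 205682501 to 205798131), carried 8.4 kb in Vc+ and 7.4 kb in Vc-. TEK (gene 7010, chromosome 9, 27109225 to 27230174) carried 7.2 kb in Vc+ and 6.8 kb in Vc-. All 5 of these widths lay above those of at least 98.5% of called genes in either condition, and all 5 islands had the capped score of 1000 in both libraries. The score is the authors' and was taken as a −log10 q-value, with each library on a scale of its own. Here it serves to rank islands within a list and, where stated, as a cutoff. It was at the cap for 2.59% of the H3K4me3 islands of Vc+ and 3.67% of those of Vc-.

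A promoter island of at least 6 kb in both conditions was thus found at 5 of 9 genes, beside 1.81% of the 14124 genes with a promoter island in both. The limit of 6 kb was set after these widths were seen. Among the cell type markers, islands past it in both conditions lay at ERG (12 kb in Vc+ and 9 kb in Vc-), an endothelial transcription factor, and at PDGFRA (8.2 kb in Vc+ and 8.8 kb in Vc-), a mesenchymal receptor kinase. The remaining 4 lay below 6 kb in both conditions. TIE1 (gene 7075, chromosome 1, 43300982 to 43323108) carried 3.6 kb in Vc+ and 4.4 kb in Vc-. VEGFA, the chief ligand of KDR (gene 7422, chromosome 6, 43770211 to 43786487), carried 3.2 kb in Vc+ and 3.4 kb in Vc-. FLT4, the receptor for VEGFC and VEGFD on lymphatic endothelium (gene 2324, chromosome 5, 180601506 to 180650298), carried 3.8 kb in Vc+ and 2.8 kb in Vc-. ANGPT1 (gene 284, chromosome 8, 107249482 to 107497918) carried 0.8 kb in Vc+, the narrowest there, and 3 kb in Vc-. Promoter islands narrower than its 0.8 kb were found at 1.26% of called genes in Vc+. Among the ligands no island reached 6 kb, and among the 7 receptors and coreceptors FLT4 and TIE1 fell short of it.

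**Figure D2:**
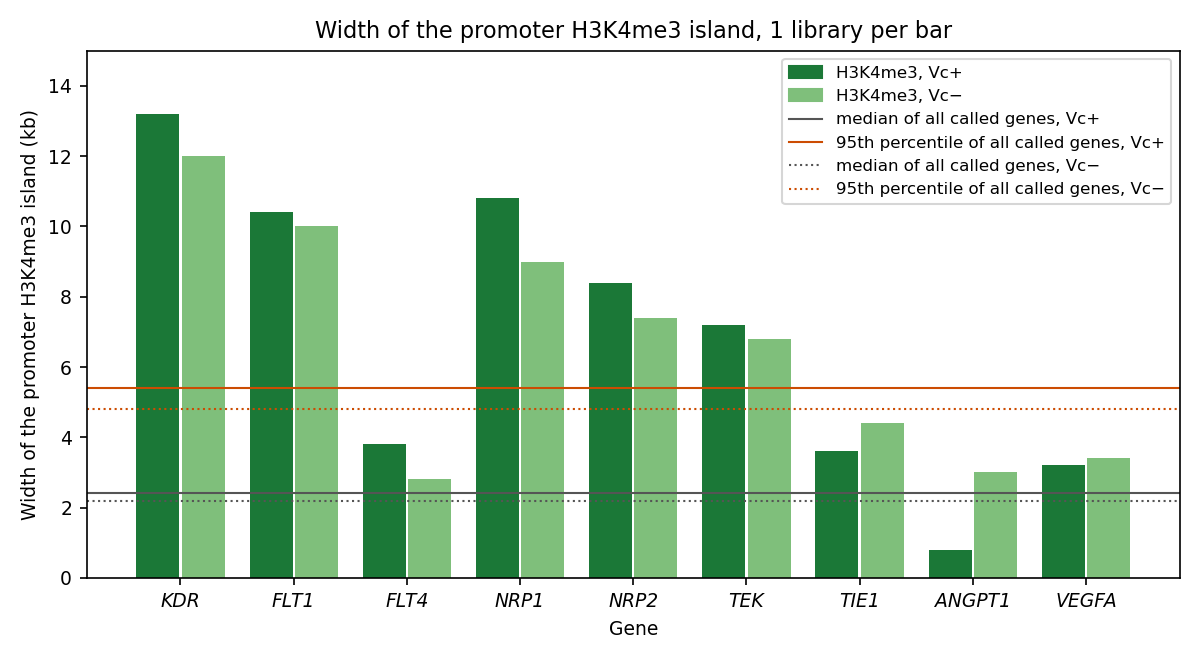
Width in kb of the promoter H3K4me3 island of 9 genes, with 1 bar for the Vc+ library and 1 for the Vc- library, so that no error can be drawn. Horizontal lines give the median and the 95th percentile over all genes with a promoter island, solid for Vc+ and dotted for Vc-. KDR, FLT1, NRP1, NRP2 and TEK lie above the 95th percentile in both conditions, and ANGPT1 is the gene whose bars differ most.

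Most of each wide island lay inside the gene. At KDR the island reached 12 kb into the gene and 1.21 kb upstream of the start in Vc+, and 11 kb into the gene and 1 kb upstream in Vc-. The downstream part was 90.9% of the island in Vc+ and 91.6% in Vc-, beside medians of 63.5% in Vc+ (10944 genes) and 62.3% in Vc- (10825 genes) over genes whose start lay in an island. At TEK it was 83% in Vc+ and 84.9% in Vc-, with 5.97 kb into the gene in Vc+ and 5.78 kb in Vc-. NRP2 had 84.5% in Vc+ and 71.6% in Vc-. FLT1 had 66.6% in Vc+ and 71.3% in Vc-, and its island reached 3.47 kb upstream in Vc+ and 2.87 kb in Vc-. NRP1 had 71% in Vc+ and 63% in Vc-, counted from the span end with H3K4me3, since its start was not in the promoter table. TIE1, with its much narrower island, had 83.9% in Vc+ and 91.3% in Vc-.

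H3K4me3 at TEK and TIE1 lay at starts poor in CpG. Among genes with at most 5 CpG in every promoter window, H3K4me3 was called in both conditions at 6.75% of 2652, and among genes with more CpG at 86.4% of 13160. An island of at least 6 kb in both conditions was found at 0.226% of the CpG-poor genes and 1.49% of the others. Among genes called in both conditions the order turned, with 3.35% of 179 CpG-poor genes and 1.72% of 11368 others. The CpG-poor share rests on 6 genes, 1 of them TEK itself, so no trend was read from it. H3K27me3 in either condition was called at 3.73% of the CpG-poor genes and 19.2% of the others. The limit of 5 CpG is the count of the TEK window and was set after it was seen. Short motifs were searched in the same windows on both strands, and no match overlapped another. An ETS word (AGGAAG or CGGAAG), the core bound by factors such as ERG, was found at 2 places in FLT1 and 1 in TIE1, and in 46.9% of all windows. A GATA word (AGATAA or AGATAG, or with T as the first letter TGATAA or TGATAG) was found in the window of the second start of TEK, and in 24.9% of all. The hypoxia response core ACGTG was in none of the windows of these 5 genes, and in 21.4% of all windows. These matches are descriptions of letters and not of binding.

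Between conditions, promoter islands were wider in Vc+ at 6 of 9 genes and narrower at 3, beside 57.5% wider and 26.2% narrower over 14124 genes. The log2 width ratio of Vc+ over Vc- had a median of 0.08 over the 9 genes and 0.13 over all. KDR had a ratio of 1.1, FLT1 of 1.04, NRP2 of 1.14, NRP1 of 1.2 and TEK of 1.06, all between the 25th and 75th percentiles of all genes, 0.947 and 1.29. VEGFA, with 0.941, and TIE1, with 0.818, lay under the lower of these, and FLT4, with 1.36, above the upper. At NRP1 the whole difference came from 1 gap, because an island of 1.4 kb in Vc- ended 400 bp short of the promoter island while a single island covered both in Vc+. With H3K4me3 islands at most 1 kb apart merged, NRP1 measured 10.8 kb in both conditions, and FLT1 12.8 kb in Vc+ and 13 kb in Vc-. The same merging set KDR apart, with 18 kb in Vc+ and 12 kb in Vc-. At FLT4 it gave 5.6 kb in Vc+ and 2.8 kb in Vc-, and at TIE1 5 kb in Vc+ and 5.2 kb in Vc-. A promoter width therefore depends on gaps of a few windows of 200 bp, and no change in width was read at KDR, FLT1, NRP1, FLT4 or TIE1.

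ANGPT1 differed most between the conditions. Its H3K4me3 island at the higher-coordinate end ran from 107496801 to 107497600 in Vc+ (0.8 kb, score 14) and from 107495401 to 107498400 in Vc- (3 kb, score 20.3). The Vc- island covered the end of the span at 107497918 and the Vc+ island stopped 0.318 kb inside it. The width ratio of Vc+ over Vc- was 0.267, a log2 ratio of -1.91, and 4 of 14124 genes (0.0283%) had a lower one. Merging islands left this ratio as it was, since no further island lay near. Both islands ranked low in their lists, with 17.9% of the islands of Vc+ and 23.9% of those of Vc- below their scores. A further island of 0.6 kb, 107240601 to 107241200, lay beyond the lower-coordinate end in Vc- alone. No H3K27me3 lay within 10 kb of ANGPT1 in either condition, and the nearest island was 86.3 kb away in Vc+ and 477 kb away in Vc-. None of the mural and mesenchymal markers, whose cell types make ANGPT1, changed its H3K4me3 call between conditions. Neither did ANGPT1, whose difference was one of width, so these calls do not bear on it. The part of those cell types in the difference was not tested. The other angiopoietin, ANGPT2 (gene 285, chromosome 8, 6499632 to 6563245), lies within the span of MCPH1 and had no island of either mark within 10 kb. Its nearest H3K4me3 island was 91.4 kb away in Vc+ and 92 kb away in Vc-, and its nearest H3K27me3 island 529 kb away in Vc+ and 448 kb away in Vc-.

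FLT4 was the one gene with both marks. At its higher-coordinate end H3K27me3 ran from 180647601 to 180652000 in Vc+ (4.4 kb) and from 180648201 to 180652400 in Vc- (4.2 kb). H3K4me3 ran from 180646601 to 180650400 in Vc+ and from 180647601 to 180650400 in Vc-. Both marks were called over the same 2.8 kb in Vc+ and 2.2 kb in Vc-, which was 73.7% of the H3K4me3 island in Vc+ and 78.6% in Vc-. H3K27me3 extended past H3K4me3 by 1.6 kb in Vc+ and 2 kb in Vc- on the outer side of the gene, and H3K4me3 reached further into the gene. The 2 H3K27me3 islands shared 3.8 kb, or 79.2% of their joint length. The score of 19.4 in Vc+ lay above 65.8% of its list, and that of 23.4 in Vc- above 69.6%. Promoters with both marks made up 14.9% of all genes in Vc+ and 13.4% in Vc-, beside 1 of 10 here. In a bulk library, 2 marks on the same chromatin and 2 marks in different cells of the culture cannot be told apart, and neither can a mark in fewer cells and a weaker mark in each.

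A second stretch with both marks lay below the lower-coordinate end of FLT4, over the neighbouring gene SCGB3A1, which encodes a secretoglobin. There H3K27me3 was 6.2 kb wide in Vc+ (180588401 to 180594600) and 4 kb in Vc- (180589201 to 180593200). H3K4me3 of 2.6 kb in Vc+ and 2 kb in Vc- lay wholly inside it. This stretch holds a gene of its own and was not read as a mark of the FLT4 promoter. By the base pairs covered in the 4 lists within 5 kb of the start or, for genes with no entry in the promoter table such as FLT4, of the span end with more H3K4me3, a choice made after the data were seen, the genes most like FLT4 among 18730 were CSMD2 and GAS2L1. Summed over the 4 lists, their covered lengths differed from those of FLT4 by 0.662 kb and 1.27 kb.

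**Figure D3:**
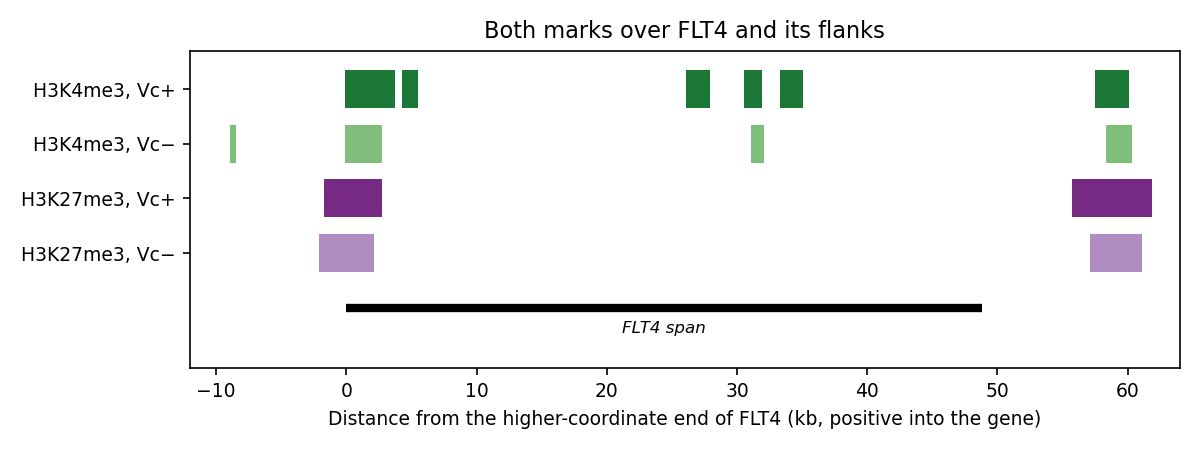
Islands of both marks in both conditions over FLT4 and its flanks, with distance in kb from the higher-coordinate end of the gene on the horizontal axis and 1 row per library. Purple H3K27me3 bars overlap the green H3K4me3 bars at 0 and again near 60 kb, where SCGB3A1 lies, and none lies inside the rest of the gene.

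Elsewhere H3K27me3 was far away. The nearest island to KDR lay at KIT, the receptor of stem cell factor, 416 kb away in Vc+ and 420 kb away in Vc-, and was 7 kb wide in Vc+ and 3.2 kb in Vc-. The nearest to FLT1 lay at FLT3, a receptor of blood progenitors, 195 kb away in Vc+ and 197 kb away in Vc-, with widths of 10.8 kb in Vc+ and 6.2 kb in Vc-. Both these neighbours encode receptor kinases of blood cells. Around VEGFA the nearest island was 215 kb away in Vc+ and 216 kb in Vc-, around TIE1 647 kb in both, around NRP2 121 kb in Vc+ and 128 kb in Vc-, and around NRP1 302 kb in Vc+ and 527 kb in Vc-. TEK had its nearest island 1540 kb away in Vc+, at LINGO2, and 176 kb away in Vc-, at MOB3B.

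Outside the promoters, 21 H3K4me3 islands in Vc+ and 14 in Vc- lay over the 10 genes and their flanks, of which 19 in Vc+ and 11 in Vc- were inside a gene. FLT1 had 7 in Vc+ and 4 in Vc-, KDR had 4 in Vc+ and 3 in Vc-, and FLT4 had 5 in Vc+ and 3 in Vc-. TIE1 had 2 in Vc+ and 1 in Vc-, while TEK with 2 and NRP2 with 1 had such islands in Vc+ alone. NRP1 with 2 and ANGPT1 with 1 had islands called apart from the promoter in Vc- alone, and VEGFA and ANGPT2 had none. The NRP1 island of 1.4 kb in Vc- lay inside the promoter island of Vc+, so H3K4me3 covered that place in both conditions. Likewise, the TIE1 island of 1 kb in Vc+ overlapped the promoter island of Vc-. More such islands in Vc+ were thus found at 6 of the 10 genes and fewer at 2, beside 7.55% of all genes with more and 8.08% with fewer, many genes having none. Among the 8946 genes with any, 16.9% had more in Vc+ and 18% fewer. Islands were counted over the whole span of a gene and 10 kb on either side. The shares over all genes were not matched for span length, so they cannot show that the counts are a trait of these 10 genes. Whether the counts go with span length was not tested. The islands outside the promoters of the 10 genes were weak. Their median score was 9.53 in Vc+ and 9.34 in Vc-, and 13 of 21 in Vc+ and 6 of 14 in Vc- had no counterpart in the other list, beside 13.8% of off-promoter islands in Vc+ and 11.7% in Vc- over all genes. Those shares include islands at promoters of neighbouring genes. Away from every protein-coding promoter, 13 of 20 in Vc+ and 6 of 13 in Vc- had none, beside 25.7% of 4814 in Vc+ and 22.3% of 4857 in Vc-, whose median scores were higher, at 19.4 in Vc+ and 21.9 in Vc-. At a score of at least 10 there were 9 in Vc+ and 5 in Vc-. When the weakest islands of Vc+ were left out until both lists covered an equal length, 7 in Vc+ stood against 14 in Vc-. That cut fell on Vc+ alone, whose lowest score was then 13.8, beside 2.01 in Vc-. It lowers the Vc+ count by design and cannot show a direction. As the counts moved with the cutoff and rest on 1 library each, no direction was read from them.

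Inside KDR, an H3K4me3 island of 4.2 kb in Vc+ (55108801 to 55113000, score 22) covered the place of an island of 1 kb in Vc- (55111201 to 55112200, score 6.3). Inside FLT1, islands of 1.6 kb and 1.2 kb in Vc+ lay at 22.3 kb and 11.1 kb from the start, with scores of 17.3 and 21.2. Neither had a counterpart in Vc-, where the nearest islands were 12.2 kb and 1 kb away. Islands in Vc- without a counterpart in Vc+ included 1.4 kb inside KDR (55092801 to 55094200, score 8.78) and 1.8 kb inside NRP1 (33248201 to 33250000, score 9.68). FLT1 was also marked in both conditions near 161 kb from the start (0.6 kb in Vc+ and 1.4 kb in Vc-) and near 86 kb (2.6 kb in Vc+ and 1.2 kb in Vc-). Inside FLT4 an island about 31 kb from the marked end measured 1.4 kb in Vc+ and 1 kb in Vc-. Whether these lie at exons, introns or inner starts cannot be told from the gene table used.

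**Figure D4:**
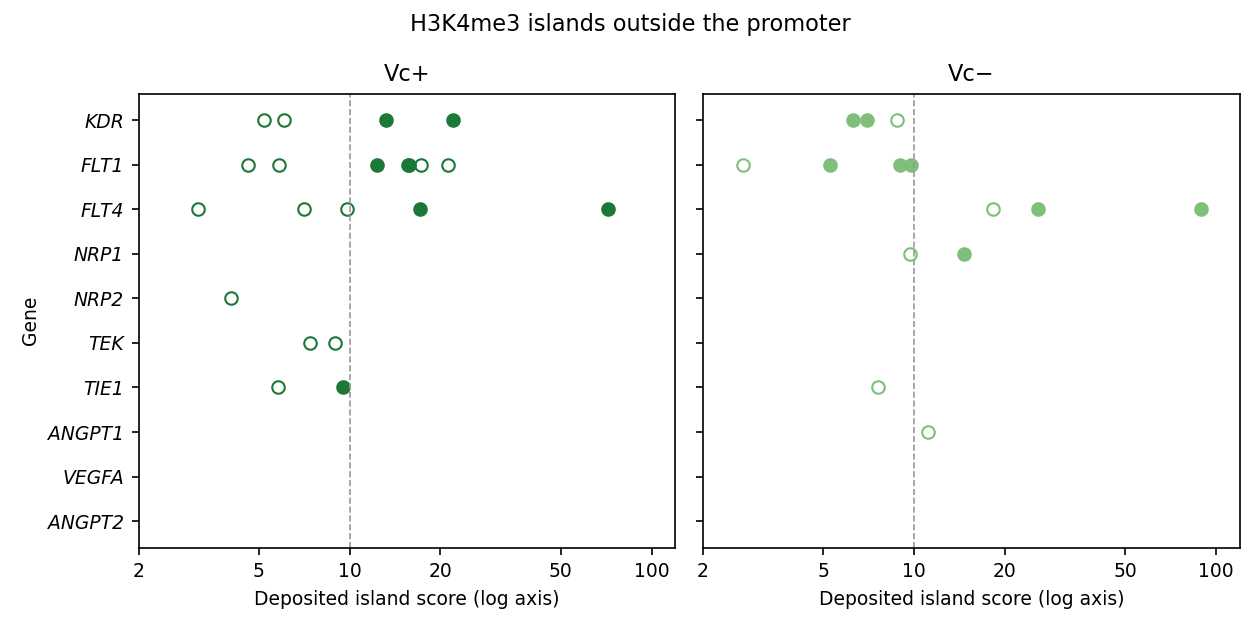
Deposited score (log axis) of each H3K4me3 island outside the promoter, by gene, with Vc+ on the left and Vc- on the right. Filled points overlap an island of the other condition and open points do not, and the dashed line marks a score of 10. Scores of the 2 libraries are on scales of their own, and most points lie below or near 10 in both.

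Of 26 further ligands, processing factors, receptor partners and signalling proteins, 21 carried H3K4me3 in both conditions and 3 carried H3K27me3 in both, and none was called in 1 condition alone for either mark. Over all genes, 70.7% were called in both conditions for H3K4me3 and 13.8% for H3K27me3, and between 0.786% and 2.64% were called in 1 condition alone, by mark and condition. The 3 with H3K27me3 were VEGFC, the ligand of FLT4, CCBE1, which is needed for the processing of VEGFC, and PRKCA, a protein kinase C downstream of the receptors. At VEGFC the H3K27me3 island was 4.6 kb wide in Vc+ and 2.2 kb in Vc-, and H3K4me3 was 1.4 kb wide in Vc+ and 1.8 kb in Vc-. CCBE1 carried 6.2 kb of H3K27me3 in Vc+ and 4.4 kb in Vc-, with H3K4me3 of 1 kb in Vc+ and 0.8 kb in Vc-. PRKCA carried 2.8 kb of H3K27me3 in Vc+ and 2.4 kb in Vc-, beside H3K4me3 of 2.8 kb in Vc+ and 1 kb in Vc-. Its H3K27me3 island lay 0.212 kb from the start in Vc+ and 0.612 kb in Vc-, so that with a promoter of 500 bp either side, or an overlap of 500 bp, PRKCA was called in Vc+ alone. Among the 5 further ligands, VEGFD and ANGPT4 had neither mark, and among receptor partners 6 of 7 had H3K4me3 and none H3K27me3.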

How the data were processed

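H3K4me3 and H3K27me3 were profiled by chromatin immunoprecipitation and sequencing. The authors deposited 1 island list per library, whose score column was taken, from its values, as −log10 of a q-value, because scores run from just above 2 to 309 and then stand at 1000. The tools SICER, Bowtie2 and deepTools are listed without settings, beside GRCh38 and hg38 as builds, per the submitters' processing notes. From the values, widths are multiples of 200 bp and gaps at least 400 bp for H3K4me3 and 800 bp for H3K27me3. Read counts and depth are unknown, so no counting interval was given. Positions were moved by 1 base to count from 1, with the end as the last base of an island.

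Genes came from a RefSeq table (GRCh38 patch 14) and starts from a RefSeq promoter table, which covered 15812 of 19974 protein-coding genes. An overlap of at least 1 bp counted, and other genes were read at either span end. All 10 genes are named. Of the other pathway genes, those with a differing call or with H3K27me3 are named, with examples of those without either mark, and the 2 genes most like each gene with H3K27me3 by covered length within 5 kb. The genes and lists were chosen with earlier results of these data known. Promoter calling was tested on the deposited lists with islands planted at genes that had none, and gave the calls of bedtools 2.31.1. The functions for covered length, distance, cutting and merging were not tested in this way. Python 3.11.15, numpy 2.4.6 and matplotlib 3.10.9 were used. Alternatives were stricter scores, other windows and overlaps, equal covered length, either span end for every gene, merging, and width limits of 5 kb and 8 kb. Merging was added after the data were seen, and the either-end setting and the width limits were not planned beforehand.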

Additional observations from a re-analysis of the deposited data

How the results depend on the processing

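No paired analysis was possible because each mark and condition had 1 library. Promoter calls of the 10 genes and the absence of differing calls held under every alternative run: scores of at least 5 or 10, promoter windows of 500 bp and 2 kb, an overlap of 500 bp, equal covered length, either span end for every gene, and merged H3K4me3 islands. The 5 wide promoter islands also held, except that a limit of 8 kb left 3. With a score of at least 10, H3K4me3 islands over the genes numbered 18 in Vc+ and 14 in Vc-, those outside promoters 9 in Vc+ and 5 in Vc- (a difference of 4, against 7), and those inside genes 8 in Vc+ and 2 in Vc-. At equal covered length the Vc+ list gave 16 islands, 7 outside promoters and 6 inside genes, the difference turned to -7, and the covered H3K4me3 length differed by 1 kb in place of 18 kb. That setting leaves out islands of Vc+ alone, down to a lowest score of 13.8, so the ANGPT1 island of Vc+ was kept narrowly. Merging turned the log2 width ratio at FLT1 to -0.02. With 5 kb flanks, H3K27me3 was left with 1 island in Vc+ (4.4 kb) and 1 in Vc-, at FLT4, because the stretch at SCGB3A1 fell out. Depth is unknown, and its effect on weak islands was not tested. Of the 26 other pathway genes, PRKCA was called for H3K27me3 in Vc+ alone with 500 bp windows or overlaps, which left 2 such genes in Vc-.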

Other observations

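TEK was 1 of 6 genes among the 2652 with at most 5 CpG in every promoter window that carried a promoter H3K4me3 island of at least 6 kb in both conditions, a selection made after the widths were seen. The others were TFPI, which encodes the tissue factor pathway inhibitor, an anticoagulant of endothelium (6.6 kb in Vc+ and 8.4 kb in Vc-), F2RL2, a receptor of the thrombin receptor family (8.4 kb in Vc+ and 8.6 kb in Vc-), the chromatin remodeller CHD2 (10 kb in Vc+ and 6.8 kb in Vc-), KLHL3 (6.4 kb in Vc+ and 6 kb in Vc-) and the histone gene H2BC7 (6.2 kb in Vc+ and 6.4 kb in Vc-). Among the other pathway genes, promoter islands as wide as the 95th percentile of all genes or wider included those at EFNB2, an arterial ephrin (6.8 kb in Vc+ and 7.6 kb in Vc-), and PLXND1, a semaphorin receptor of endothelium (5.8 kb in Vc+ and 5.4 kb in Vc-). At PTPRB, the vascular phosphatase that acts on TEK, an H3K27me3 island lay 5.03 kb from a gene end in Vc+, and the nearest was 282 kb away in Vc-.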
